A study of Mus musculus with 6 samples.

Results

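Id1, Id2, Id3, Id4, Atoh8, Hey1, Hes1, Hes5 and Hes6 are mouse genes of the helix-loop-helix (HLH) family, and they were taken by symbol from the count tables of the series, 9 gene rows of 24391. They were chosen by family, with the measured difference of their counts between AVP and control cultures already known, so that difference is described here without a test of its own. The samples were cultures of GT1-7, an immortalised mouse hypothalamic line of wild-type genotype that the labels class as resembling GnRH (gonadotropin-releasing hormone) neurons. All cultures were kept without serum for 12 h. Then 3 cultures received arginine vasopressin (AVP), a hypothalamic peptide hormone, at 200 pg/mL, and 3 controls received vehicle, each for 6 h, although a second label calls the controls untreated. The labels describe the 3 cultures of a group as independent biological replicates of this single line, all of batch 1.

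HLH factors bind DNA as pairs, each partner placing a basic region on an E-box or a related site. Id proteins keep the pairing domain but lack the basic region, so a pair that holds an Id protein does not bind DNA; their main partners are the E proteins, encoded by Tcf3, Tcf4 and Tcf12, which otherwise pair with proneural activators. BMP signals acting through SMAD proteins are a classical inducer of Id genes. Hes and Hey proteins are repressors that recruit Groucho corepressors and are classical targets of Notch; in the nervous system they hold back proneural genes. Hes6 is an unusual member that has been described as binding and inhibiting HES1. Atoh8 encodes a distant relative of the proneural Atonal factors.

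Libraries held 34908867 to 37418318 counts, at which 3 counts correspond to 0.0802 to 0.0859 CPM (counts scaled to a common library size). This limit covers counting error only and is given before the TMM scaling used for the other CPM. The 3 AVP libraries had 16674 to 16739 detected genes and the controls 16166 to 16403, and what part this had in any result was not tested. Of the 8 neuronal markers, 7 had at least 3 counts in every library, with summed levels of 1514 to 1626 CPM in control and 1511 to 1570.1 CPM in AVP cultures, and Stmn2 had a single count in all. At an adjusted p under 0.05 in edgeR, Map2, Tubb3, Elavl4 and Nefl were called higher with AVP and Syp, the largest part of the sum, lower. Of all tested genes 28.7% were called higher and 28.8% lower. Of the 6 GnRH neuron markers 4 had at least 3 counts in every library, Gnrh1 with only 11 to 26 counts a library (0.299 to 0.75 CPM), and Otx2 had a single count in all. They summed to 81.2 to 101 CPM in control and 162 to 178 CPM in AVP cultures, most of it Isl1, which was called higher while no other was. Of the neural progenitor markers, 4 of 6 had at least 3 counts in every library and Sox2 was at 0 throughout. Their summed level was 80.2 to 89.1 CPM in control and 155 to 164 CPM in AVP cultures. Sox2 and Prom1 were not tested. Of the 4 tested, Vim, Fabp7 and Nes were called higher, Nes with overlapping groups, and Pax6 was called neither way. Astrocyte markers summed to 1.18 to 1.30 CPM in control and 1.77 to 2.33 CPM in AVP cultures, with 1 of 5 at 3 or more counts in every library. Oligodendrocyte markers summed to 47.9 to 53.5 and 17.1 to 19.1 CPM (2 of 5 so detected, Mog and Mag at 0), microglial markers to 10.6 to 13.8 and 110.3 to 126 CPM (1 of 5, Tmem119, with P2ry12 at 0), and endothelial and fibroblast markers to 319.6 to 343 and 249 to 280.1 CPM (4 of 6, Col3a1 at 0). Most of each of these sums was a single gene, Mbp, Tmem119 and Kdr in turn. The part of these marker differences in the results was not tested, and in bulk RNA a change in the number of cells of a type and a change of RNA per cell cannot be told apart.

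Promoter windows from RefSeq (GRCm38.p6), 250 bases before to 50 after the annotated start, were on hand for 6 of the 9 genes. They are shown for the members with the largest differences, Atoh8 and Id2, for Id3, which moved with them but holds none of the motifs marked, and for Hes5, the member that was barely detected. Capitals mark E-boxes (CANNTG), the RBPJ core TGGGAA, the site of the DNA-binding partner of Notch, and GGCGCC, a GC-rich SMAD site, each on either strand. All run 5′ to 3′ on the strand of the gene.
Atoh8 (chr6:72235528-72235827, minus strand): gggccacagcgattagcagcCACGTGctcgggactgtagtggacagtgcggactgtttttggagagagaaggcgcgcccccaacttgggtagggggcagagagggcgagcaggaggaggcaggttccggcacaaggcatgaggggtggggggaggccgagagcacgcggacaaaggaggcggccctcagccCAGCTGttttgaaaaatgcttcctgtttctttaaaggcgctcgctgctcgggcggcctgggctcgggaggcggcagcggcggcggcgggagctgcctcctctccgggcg
Id2 (chr12:25096043-25096342, minus strand): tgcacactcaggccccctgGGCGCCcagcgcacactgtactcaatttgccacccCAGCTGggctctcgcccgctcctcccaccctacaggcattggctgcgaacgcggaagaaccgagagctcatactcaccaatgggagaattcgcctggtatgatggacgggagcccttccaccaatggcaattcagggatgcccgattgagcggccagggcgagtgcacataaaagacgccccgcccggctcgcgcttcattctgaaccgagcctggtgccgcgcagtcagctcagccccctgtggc
Id3 (chr4:136143572-136143871, plus strand): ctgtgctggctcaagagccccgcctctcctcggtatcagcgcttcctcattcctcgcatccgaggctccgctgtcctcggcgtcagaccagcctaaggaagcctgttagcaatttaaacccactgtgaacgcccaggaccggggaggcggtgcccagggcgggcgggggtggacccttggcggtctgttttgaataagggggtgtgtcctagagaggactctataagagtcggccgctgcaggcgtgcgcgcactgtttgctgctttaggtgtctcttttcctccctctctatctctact
Hes5 (chr4:154960673-154960972, plus strand): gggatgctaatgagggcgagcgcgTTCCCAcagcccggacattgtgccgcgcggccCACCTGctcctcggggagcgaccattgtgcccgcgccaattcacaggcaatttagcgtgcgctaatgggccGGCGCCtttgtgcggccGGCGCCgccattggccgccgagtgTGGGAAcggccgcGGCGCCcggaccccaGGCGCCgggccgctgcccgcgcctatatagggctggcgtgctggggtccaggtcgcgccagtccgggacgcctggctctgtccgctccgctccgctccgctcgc

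The windows had no motif in common. Positions are those of the first base counted from the start site. Id2 holds 1 E-box at -196 and 1 GGCGCC at -231. Atoh8 holds E-boxes at -230 and -59. The first of these, CACGTG, also matches CACGNG, the broad pattern searched here for the class C site of Hes proteins, but need not be such a site. A further match of this pattern, CACGCG, lies at -88. Hes5, the classical Notch target, holds RBPJ cores at -226 and -82 and 4 matches of GGCGCC between -123 and -54. Id4 holds 1 RBPJ core at -245 and 1 GGCGCC at -148. Hes6 has 2 annotated windows, with 1 E-box in the downstream and 3 in the upstream window, and the downstream window has the only TATAAA, at -28. Over the 7 windows of these 6 genes, 5 had an E-box, against 72.3% of the 32851 windows of all genes. GGCGCC was in 3 of 7 windows, against 11.9% of all, and the RBPJ core in 2 of 7, against 25.6%. The N-box CACNAG was in 4 of 7 against 42.5%. The class C pattern CACGNG, which takes in the E-box CACGTG, was in 2 of 7 against 27.5%. The short SMAD box GTCT was in 4 of 7 against 88.0%, and TGACG, the short site of cAMP-responsive elements, in 2 of 7 against 20.8%. The full element TGACGTCA (1.79% of all windows) and the core of the serum response element (0.0639%) were in none of them. The windows were rich in CpG, with an observed to expected ratio of 0.53 to 1.04 against a median of 0.384 for all windows, and GGCGCC itself holds CpG. A match is a run of letters and not a site known to be bound.

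**Figure D1:**
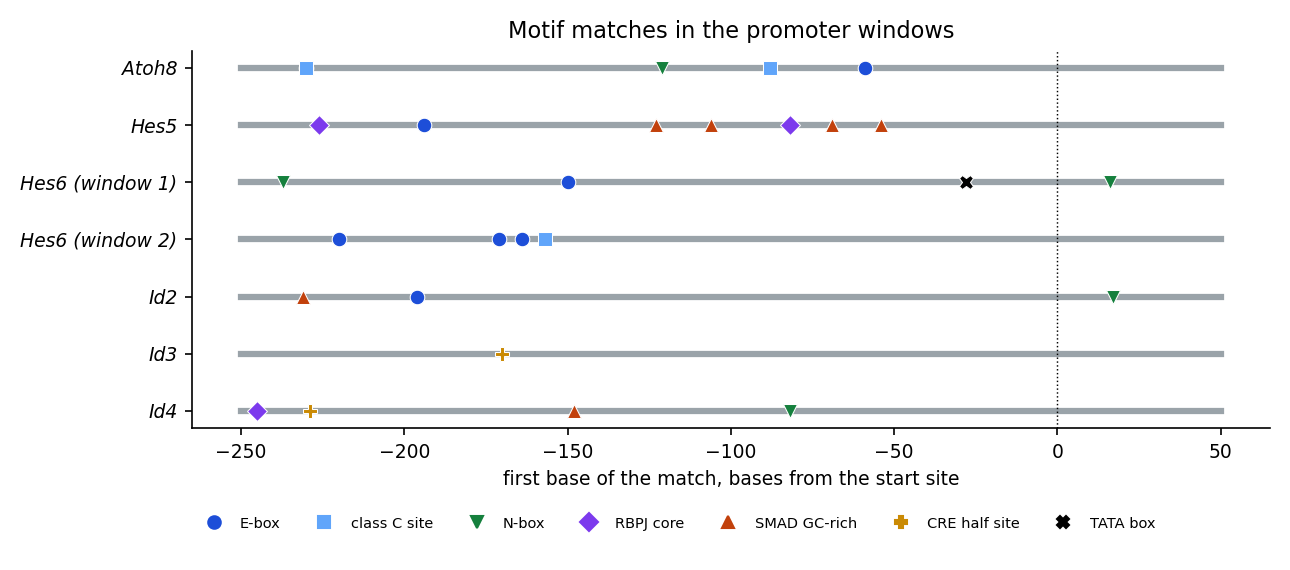
Motif matches in the 7 promoter windows of 6 genes, placed by the distance in bases from the start site (dotted line) to the first base of the match; the short SMAD box is not drawn, and the class C symbol of Atoh8 at -230 covers an E-box. The 4 GGCGCC matches of Hes5 lie between -123 and -54, and Id3 has a TGACG match only.

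The Id genes were all higher in AVP cultures, Id2 by the largest fold and Id1 at the highest level. Id2 (GRCm38, like all positions here, chromosome 12, 25093799 to 25097140, minus strand) was measured at 18.9, 18.8 and 19.6 CPM in control replicates 1, 2 and 3 and at 87.3, 82.6 and 99.4 CPM in AVP replicates 1, 2 and 3. The lowest AVP culture was above the highest control, and the difference was 2.23 on the log2 scale (SE 0.08), or 4.70-fold. Id3 (chromosome 4, 136143497 to 136145755, plus strand) had 38.8, 46.9 and 42.9 CPM in the controls against 151, 127 and 146 CPM with AVP, a log2 difference of 1.72 (SE 0.08). Id1 (chromosome 2, 152736251 to 152737410, plus strand) had 101, 112 and 107 CPM in the controls against 241, 209.9 and 225 CPM with AVP, a log2 difference of 1.08 (SE 0.06). Id1 is the gene whose name stands for inhibitor of DNA binding, and its AVP values, like those of Id3, lay apart from every control value. Id4 (chromosome 13, 48261228 to 48266026, plus strand), known for roles in neural stem cells, was the lowest of the Id genes, with 6.88, 6.22 and 5.19 CPM in the controls against 14.1, 14.7 and 15.6 CPM with AVP, a log2 difference of 1.28 (SE 0.13). A pair of noncoding genes on the opposite strand shares 2.13% and 4.44% of the exon bases of Id4, and no label says whether counting used strand, so a small part of its count is uncertain.

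Id2 and Id3 differed by more than Id1, and the makeup of the Id pool differed between the groups. Id1 took 60.9 to 61.4% of all Id counts in control cultures and 46.3 to 48.8% in AVP cultures. The share of Id2 was 10.2 to 11.4% in control and 17.7 to 20.5% in AVP cultures, and that of Id3 was 23.5 to 25.5% and 29.3 to 30.7%. These 3 shares did not overlap between the groups, whereas the share of Id4, 2.97 to 4.16% and 2.87 to 3.39%, did. The shares of a library make up a fixed whole, so they are not separate results. They come from counts known when the members were chosen, so the lack of overlap is a description and no test. The shares are of counts, not adjusted for length, so they are compared between cultures only.

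Atoh8 (chromosome 6, 72206177 to 72235577, minus strand) had 6.28, 6.72 and 7.21 CPM in the controls against 35.2, 33.3 and 26.8 CPM with AVP. All AVP values lay far above the controls, with AVP replicate 3 the lowest of them, and the log2 difference of 2.24 (SE 0.12) stood beside 2.23 for Id2. Of the 14163 genes tested, 130 had a larger log2 rise than Atoh8 and 131 a larger one than Id2. The genes whose log2 CPM over the 6 samples, centred on their mean, lay nearest to Atoh8 were Lef1, a transcription factor gene of the Wnt pathway (root mean square difference 0.11), Brinp2 (0.13) and Kcnq3, a potassium channel subunit gene (0.13), out of 10656 genes compared. Lef1 and Kcnq3 reached the required average of 5 CPM only through the AVP cultures, and with 2 groups the measure mostly finds genes of a like fold. Lef1 had 1.95 ± 0.135 CPM in the controls and 9.38 ± 0.799 CPM with AVP (SD, n = 3).

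Of the repressors, Hes1 and Hey1 were low and Hes6 high, and all were higher with AVP. Hes1 (chromosome 16, 30064384 to 30067796, plus strand), the best known Notch-responsive repressor, had 1.11, 1.66 and 1.36 CPM in the controls against 4.02, 3.33 and 3.83 CPM with AVP, from 40 to 59 and 126 to 148 counts per library. Its log2 difference was 1.44 (SE 0.22), the widest error among these genes. Hey1 (chromosome 3, 8663359 to 8667256, minus strand), a repressor that acts in Notch and BMP responses, had 3.95, 3.18 and 2.88 CPM in the controls against 5.74, 5.42 and 5.33 CPM with AVP, a log2 difference of 0.72 (SE 0.17). Neither gene overlapped between the groups, although control replicate 1 of Hey1 stood above the other 2 controls. Hes6 (chromosome 1, 91411483 to 91414038, minus strand) had the smallest difference, from 139, 127 and 133 CPM in control to 182, 166 and 165 CPM in AVP cultures, 0.36 on the log2 scale (SE 0.06), and 3097 tested genes had a larger rise. The genes nearest to Hes6 by the same measure were Tnfsf9 (0.02), Fpgt (0.03) and Fitm2 (0.03). Hes5 (chromosome 4, 154960923 to 154962371, plus strand), a Notch target of neural progenitors, had 0, 2 and 2 counts in control and 4, 5 and 0 counts in AVP libraries. It failed the filter on low counts, so no fold is given, and 31.8% of its exon bases are shared with a noncoding gene on the opposite strand.

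**Figure D2:**
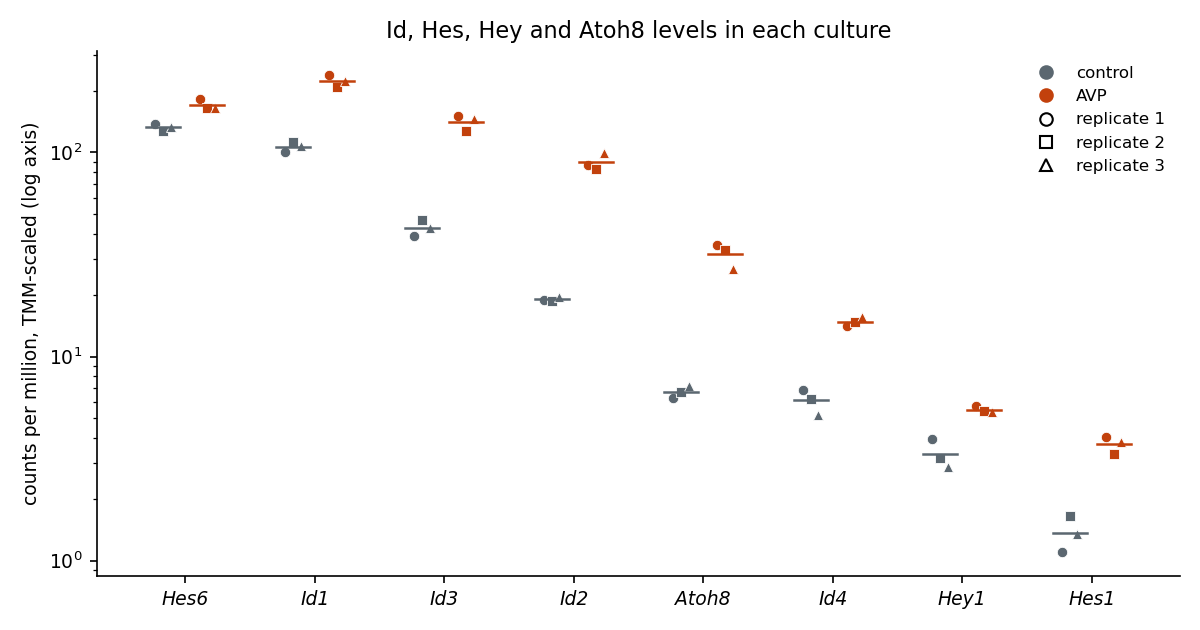
CPM of 8 genes in each culture on a log axis, control in grey and AVP in orange, with a symbol per replicate and a line at the mean of 3 cultures; Hes5 is not drawn. The AVP cultures lie above the control cultures for each gene drawn, with the widest gaps for Atoh8 and Id2 and the narrowest for Hes6.

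Over all genes tested, 28.7% were called higher with AVP at an adjusted p under 0.05 in edgeR's quasi-likelihood test (57.5% in either direction), and in 32% all AVP values lay above all control values. The 8 members that passed the filter on low counts were of both kinds, but they were chosen with these differences known, so that count is no test of them and nothing is read from it. The spread between cultures of a group was small for these genes, with a median coefficient of variation of 7.92%, from 2.18% for Id2 in control to 20.2% for Hes1 in control. Across 16 alternative settings the log2 difference ranged from 0.31 to 0.40 for Hes6, from 0.61 to 0.86 for Hey1 and from 2.15 to 2.29 for Id2.

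To compare genes with each other, counts were divided by the length of all exons of the gene (GENCODE M21, GRCm38) and scaled to the same total in each library, as in TPM. On this scale the order in control cultures was Id1 at 368 ± 19.9, Hes6 at 293 ± 14.8, Id3 at 95.5 ± 8.68, Id2 at 31.2 ± 1.26, Atoh8 at 10.7 ± 0.906, Id4 at 6.31 ± 0.801, Hey1 at 4.08 ± 0.64, Hes1 at 2.69 ± 0.526 and Hes5 at 0.112 ± 0.0968 (SD, n = 3). Neighbours in this order did not overlap. In AVP cultures Id1 reached 817 ± 49.6, Hes6 398 ± 22.3, Id3 333 ± 26.4, Id2 155 ± 13.5 and Atoh8 53.4 ± 7.63, and the order differed in a single place, since Hes1 at 7.71 ± 0.67 stood above Hey1 at 7.09 ± 0.274 with overlapping values. The level of Hes6 was 86.3 to 141 times that of Hes1 in control and 48.4 to 56.1 times in AVP cultures, ranges that did not overlap.

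**Figure D3:**
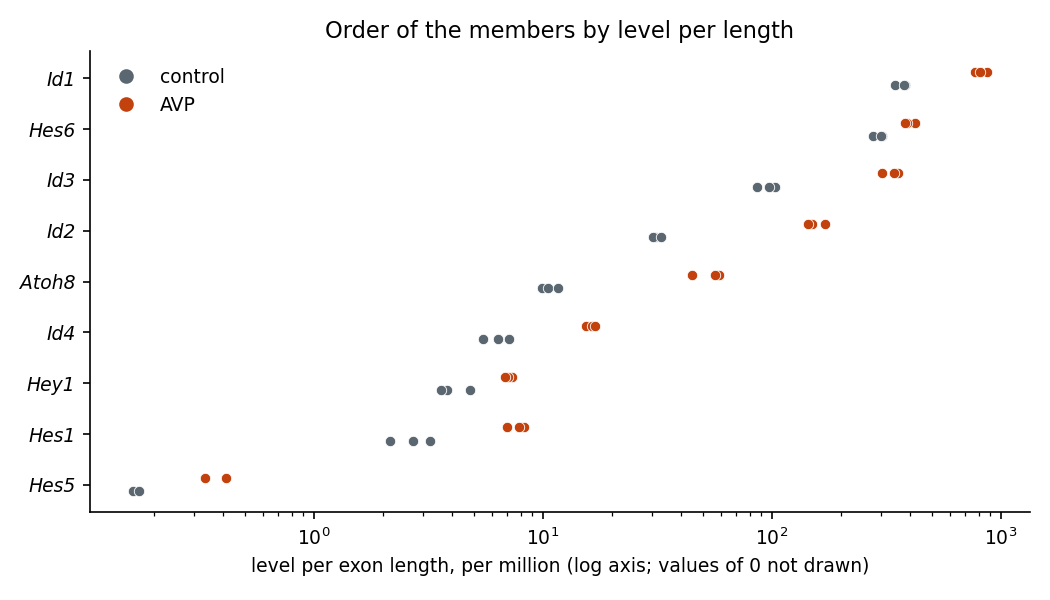
Level per exon length (TPM scale) of the 9 genes on a log axis, a point per culture, control in grey and AVP in orange. Id1 and Hes6 lead in both groups, Hes1 and Hey1 overlap in AVP cultures only, and the values of 0 of Hes5 (1 control and 1 AVP culture) are not drawn.

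The E proteins, partners that Id proteins hold off DNA, changed little beside the Id genes. Tcf3 fell from 162, 160.4 and 152 to 132, 135 and 137 CPM (log2 fold change -0.23, SE 0.05, adjusted p = 0.00115 in edgeR). Tcf12 rose from 412, 423 and 408 to 462, 462 and 435 CPM (log2 fold change 0.13, adjusted p = 0.0317), but its call was lost without any single control library or without AVP replicate 1 or 2 (adjusted p = 0.0619 to 0.111). Tcf4 had 509.8, 522 and 586 CPM in the controls against 579, 571 and 551 CPM with AVP, groups that overlapped (adjusted p = 0.287), and it was called without control replicate 3 (adjusted p = 0.0499). Summed per length, the Id genes stood at 501 ± 28.0 in control and 1321 ± 78.3 in AVP cultures, and the E proteins at 341 ± 5.34 and 351 ± 7.48 (SD, n = 3). The ratio of both sums was 1.38, 1.54 and 1.47 in control replicates and 3.97, 3.45 and 3.9 in AVP replicates, 2.57-fold higher. The ratio itself depends on the lengths, since Tcf4 and Tcf12 have many annotated exons. With the longest transcript of each gene it was 0.751 in control and 1.93 in AVP cultures, 2.57-fold higher. A gene has the same length in both groups, so this fold could hardly change and is no second support. The Id genes were chosen with their difference known, so the fold is a description. These are transcript levels and say nothing of protein.

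**Figure D4:**
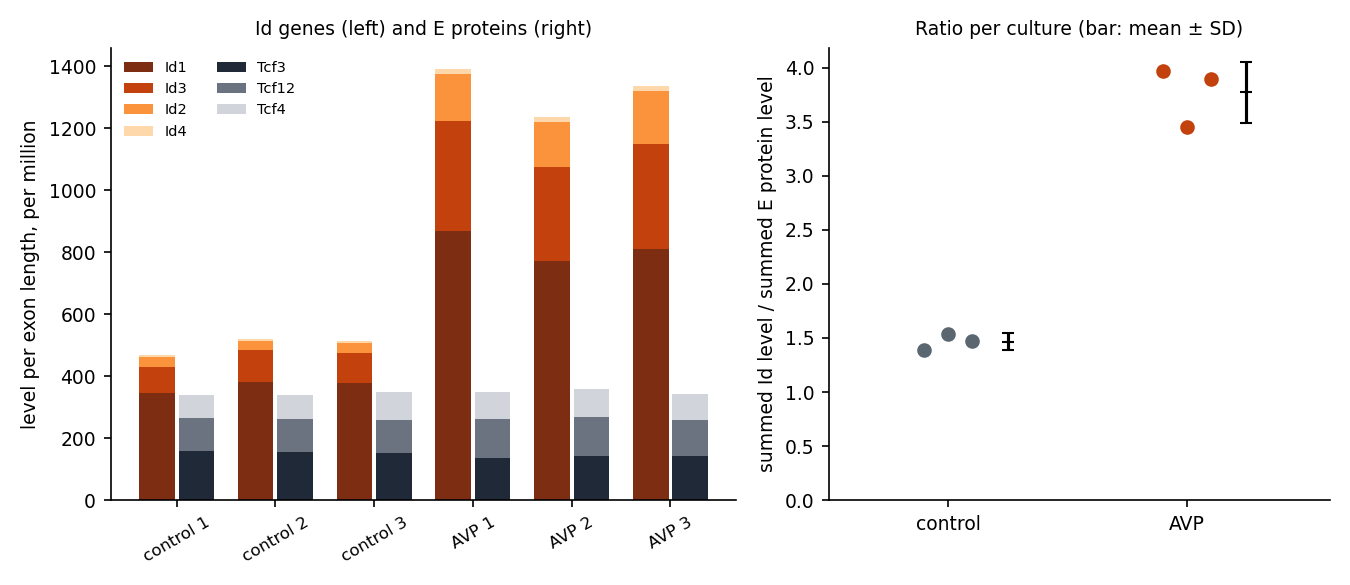
Left, stacked levels per exon length (TPM scale) of the Id genes and of the E protein genes in each library; right, the ratio of both sums per culture, with mean and SD of 3 cultures. The Id stack grows from 469 to 521 in control to 1236 to 1390 in AVP libraries, while the E protein stack stays between 338 and 358.

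Relatives of the members moved both ways. Of 8 other Hes, Hey and Dec genes, 5 were tested, of which 3 rose and 1 fell (median log2 fold change 0.74), where of all tested genes 28.7% rose, 28.8% fell and the median was 0.01. Hey2 rose from 3.10, 3.63 and 3.34 to 5.66, 5.76 and 8.08 CPM (adjusted p = 0.000283), and Bhlhe41, a repressor of the clock, from 7.77 ± 0.335 to 13 ± 0.583 CPM (adjusted p = 4.01e-05). Helt rose from 0, 3 and 6 counts to 19, 13 and 16 counts (adjusted p = 0.00918), a log2 fold change of 2.31 that was 1.73 without control replicate 1 and 3.26 without control replicate 3. It passed the filter on low counts only through the AVP group, where it was high, so its place among the 3 is no support for the list. Bhlhe40 fell by 0.19 on the log2 scale (adjusted p = 0.0202), a call lost without control replicate 1 (0.0555) or AVP replicate 1 (0.114) and with library size alone (0.0503). Of the 6 listed genes of the Groucho family, Tle6 fell by 0.26 on the log2 scale (adjusted p = 0.00409) and the other 5 did not pass, with log2 fold changes between -0.11 and 0.09.

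Of 6 tested proneural and neuronal factors reported here, 2 fell, where 28.8% of all tested genes fell. Bhlhe22, which encodes a repressor, fell from 45.6, 51.8 and 47.4 to 22.4, 18.2 and 22.1 CPM (log2 fold change -1.21, adjusted p = 2.28e-08), and Neurod1, which promotes neuronal maturation, fell from 169 ± 7.3 to 138 ± 5.6 CPM (adjusted p = 0.000229). Neurog2, named after its values were seen, had 24.2, 25.5 and 26.8 CPM in the controls against 10.9, 14.3 and 25 CPM with AVP, where AVP replicate 3 lay within the control range (adjusted p = 0.127). A further 12 listed genes were not tested, and 5 of them, Neurog1, Atoh7, Bhlhe23, Olig2 and Olig3, had no count in any library. Among 20 bHLH factors of other tissues 7 were tested. Tal1 and Tcf24 rose by 0.52 and 0.43 on the log2 scale, and Bhlha15, Twist1 and Tcf15 fell by 1.03, 0.38 and 1.2 (SE 0.39 for Tcf15). Tcf15 had only 37, 45 and 25 counts in control and 21, 12 and 15 counts in AVP libraries. Its call was lost without control replicate 2 (adjusted p = 0.0799) or AVP replicate 2 (0.0728).

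Of the BMP pathway, Smad9 and the receptor genes Bmpr1a and Bmpr2 rose, and most listed ligands had no count. Bmp2, Bmp4, Bmp6 and Gdf6 were at 0 counts throughout, a limit of 0.0859 CPM at most in any library before TMM scaling. Bmp5 and Bmp7 had at most 4 counts in any library. Smad9, which encodes a SMAD that BMP receptors activate, rose from 34.8, 30.7 and 31.7 to 97.9, 97.6 and 92.4 CPM (log2 fold change 1.57, SE 0.07, adjusted p = 3.40e-11). The receptor genes Bmpr1a and Bmpr2 rose from 44.7 ± 2.63 to 84.5 ± 6.47 CPM and from 76.3 ± 2.65 to 122 ± 12.3 CPM (adjusted p = 3.41e-08 and 8.75e-07). Bmpr1b rose by 0.32 on the log2 scale (adjusted p = 0.02), a call lost without control replicate 2 (0.0824) or AVP replicate 1 (0.122). Acvrl1, another receptor gene, fell from 253 ± 6.38 to 186 ± 6.66 CPM (adjusted p = 2.08e-06) and Smad1 from 106 ± 5.11 to 92.6 ± 4.24 CPM (adjusted p = 0.0092), the latter not without AVP replicate 2 (0.0605). The counts were 4 higher, 2 lower and 3 not past the threshold of 9 tested, beside 28.7% higher and 28.8% lower of all tested genes, with a median log2 fold change of 0.12.

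Of 8 tested BMP inhibitors and feedback genes reported here, 6 rose and 1 fell, with a median log2 fold change of 1.15 against 0.01 for all tested genes, where 28.7% rose and 28.8% fell. Smad7, a feedback inhibitor of SMAD signalling, rose from 12.1, 12.6 and 10.7 to 53.9, 50.6 and 51.4 CPM (adjusted p = 1.70e-11). Smad6, the inhibitor specific to BMP signals, rose from 4.59, 3.46 and 3.40 to 13, 11.5 and 12.8 CPM (adjusted p = 9.32e-08), and Bambi, a pseudoreceptor gene, from 7.13, 6.53 and 6.60 to 23.4, 20.5 and 22.3 CPM (adjusted p = 2.52e-09). Of the 8 tested, 6 had all AVP values above all control values, these 3 among them, and 1 had all below. Over all tested genes, all AVP values lay above all control values in 32%. Nog, which encodes the BMP antagonist noggin, rose 2.18-fold and Nbl1, another secreted antagonist gene, 2.26-fold (adjusted p = 1.51e-09 and 1.79e-06). Smurf1, a ubiquitin ligase gene, fell by 0.42 on the log2 scale, and its relative Smurf2 rose by 0.23 (adjusted p = 0.000297 and 0.0242), the latter not called without control replicate 1 (0.0549) or 3 (0.0805) or AVP replicate 1 (0.0624) or 2 (0.0846). These genes are listed as regulators of the same pathway, and a shared cause was not tested. Like the other lists, this list was chosen with earlier results of these data known, so its counts and median are a description and no test.

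Notch pathway genes were divided. Of 16 tested ligands, receptors and effectors 7 rose and 3 fell (median log2 fold change 0.18), and of 13 modifiers 4 rose and 5 fell (median -0.09), beside 28.7% higher and 28.8% lower of all tested genes. Dll1, a ligand gene that proneural factors are known to activate and Hes1 to repress, fell from 51.3, 57.5 and 54.6 to 23.8, 28.7 and 24.2 CPM (log2 fold change -1.09, SE 0.08, adjusted p = 3.22e-08). Jag1, another ligand gene, rose from 3.48, 2.84 and 3.06 to 5.82, 6.13 and 7.03 CPM (adjusted p = 7.42e-05) and Jag2 rose by 0.29 on the log2 scale. The receptor genes differed in direction, Notch1 falling by 0.86 and Notch2 rising by 0.43 (adjusted p = 0.00983 and 0.00707). Adam17, an enzyme that cleaves Notch, and Ncstn, of gamma-secretase, rose by 0.58 and 0.21, and Psen2 of the same complex fell by 0.49. The coactivator gene Maml2 rose by 1.71 (SE 0.33), from only 14, 16 and 23 to 69, 68 and 45 counts. It was not among the genes averaging 50 counts or more. Rbpj itself, named after its values were seen, rose by 0.17 (adjusted p = 0.0209), a call lost without control replicate 2 (0.0956) or AVP replicate 2 (0.0831).

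Among the modifiers, the ubiquitin ligase gene Dtx4 fell from 25.4, 24.4 and 23.8 to 8.95, 10.04 and 9 CPM (adjusted p = 1.07e-08). Numbl, a relative of the Notch inhibitor Numb, fell by 0.89 on the log2 scale, Pofut1, which adds fucose to Notch, by 0.57, and Dtx3 and Dtx2 by 0.44 and 0.43. Mib1, which activates Notch ligands, rose from 30.3 ± 2.34 to 51.2 ± 4.47 CPM (adjusted p = 1.64e-06), and Fbxw7 and Itch rose by 0.26 and 0.15. The call of Itch was lost without control replicate 1 or 2 or AVP replicate 1 or 2 (adjusted p = 0.0681 to 0.161), with DESeq2 (0.0544) and without a filter (0.0582). Lfng, a sugar-adding modifier of Notch, rose from 12, 3 and 2 to 53, 49 and 21 counts (adjusted p = 0.000623), and its log2 fold change of 2.77 was 3.9 without control replicate 1. It passed the filter on low counts only through the AVP group, where it was high, so its place among the 4 modifiers that rose is no support for the list. Nrarp, a feedback gene of Notch signalling named after its values were seen, had 6.99 ± 0.786 CPM in the controls and 6.48 ± 1.46 CPM with AVP (adjusted p = 0.590), with overlapping values.

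Cyclin-dependent kinase inhibitors, some of which E proteins activate and Id proteins hold down, changed by small amounts. Of 7 tested, Cdkn1a rose from 218 ± 9.90 to 267 ± 4.97 CPM (adjusted p = 0.000163), Cdkn2c fell from 260 ± 2.05 to 209 ± 10.1 CPM (adjusted p = 8.33e-05) and Cdkn2a from 127 ± 17.4 to 90.6 ± 8.47 CPM (adjusted p = 0.00144). The other 4 did not pass, and without control replicate 3 there were 4 falls in place of 2. Over all 10 lists of related genes 28 of 80 tested rose (35%) and 21 fell (26.3%), beside 28.7% and 28.8% of all tested genes, and the median log2 fold change was 0.08. Against a required fold change above 1.2, 18 rose and 13 fell.

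**Figure D5:**
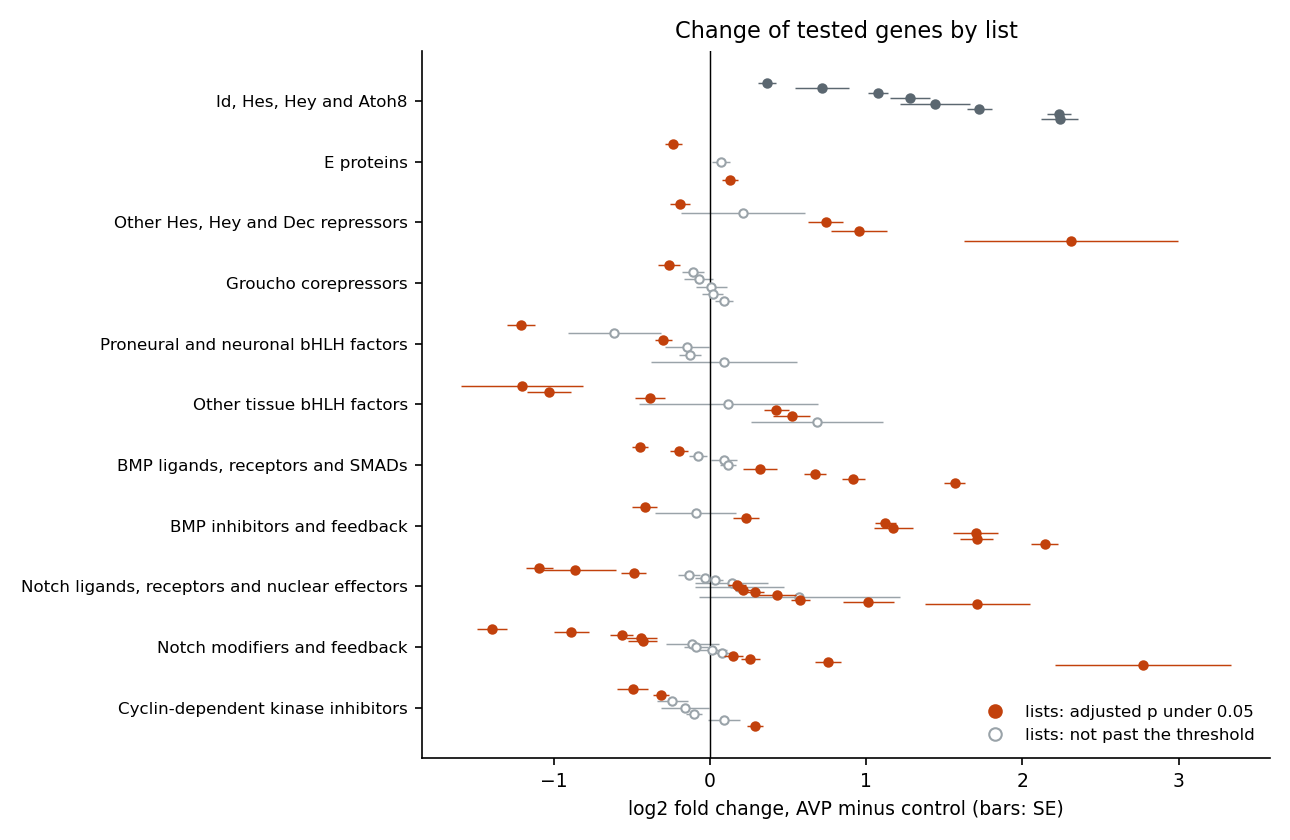
Log2 fold change, AVP minus control, with SE for each tested gene of the members (top) and of the 10 lists of related genes, filled, for the lists, where the adjusted p is under 0.05; the members are in grey with no call. The members lie between 0.36 and 2.24, while the lists spread over both sides of 0, and among the BMP inhibitors 6 of 8 lie to the right and past the threshold.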

How the data were processed

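Counts per gene were measured by RNA sequencing in 3 control and 3 AVP cultures. Each sample has a deposited table of unnormalised counts by gene symbol, made by the authors. Per the submitters' processing notes the builds were mm10 and GRCm38; aligner, counter, annotation and strand setting were not stated in any source at hand. No table held columns outside the sample map. The 9 members and the lists of related genes were chosen with earlier results of these data known, and so were the tests. Of the listed genes 2 are not reported here, and they were left out of all list counts, medians and figures after their values were seen, so a count covers the remaining genes of its list.

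Counts were fitted with edgeR 4.0.16 (R 4.3.3): filterByExpr with a minimum count of 10, TMM factors, a robust quasi-likelihood F test of AVP against control without covariates, and Benjamini-Hochberg adjustment over 14163 tested genes at 0.05. Adjusted p-values in the text are from this test unless another is named. CPM are TMM-scaled, and log2 fold changes are AVP minus control with SE from the F statistic. Hes5 was not tested. The fit was tested on simulated counts. Levels per length used GENCODE M21 exons, matched by symbol for 95.5% of rows; the authors' own annotation may differ. Nearest profiles used log2 CPM with a prior count of 2 and named genes of at least 5 CPM on average. Genes of each list were named if past the threshold, up to 6 in each direction by smallest p, with all E proteins; other names are said to be chosen later. Protein sequences were not used here, so the planned protein features were not computed. Motifs were searched on both strands of RefSeq promoter windows. Alternatives were RLE, upper-quartile and no factors, dropping the filter, keeping genes averaging 50 counts or more, DESeq2 1.42.0, limma-voom (limma 3.58.1), a threshold of 0.01, glmTreat against a fold of 1.2, leaving out each sample, blocking on replicate number, and, chosen after seeing the data, transcript length. No library repeated another of its group (chi-square per degree of freedom of at least 7.17). Python 3.11.15, pandas 2.3.3 and matplotlib 3.10.9 were used.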

Additional observations from a re-analysis of the deposited data

How the results depend on the processing

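The members were chosen with their difference known, so their values under the alternatives are a description and no sign of stability. Over all genes, 4063 rose and 4084 fell, and against a fold change of 1.2 these counts were 2197 and 2332. The related genes went from 28 higher and 21 lower to 18 and 13 there. With single samples left out the counts over all genes lay between 3525 and 4053 higher and between 3592 and 4166 lower, and those of related genes between 24 and 29 and between 19 and 23. Library size alone gave 4475 higher and 3725 lower. Of 796 values of named related genes under alternatives, 743 kept direction and call, 52 lost the call (18 of them against the fold of 1.2 and 7 at 0.01), 1 gained it and 0 changed sign. All of these genes but Tcf4 were called in the main fit, and most were counted for that reason. The alternatives use the same libraries, so the kept calls are no sign of stability either. The ratio of summed Id to summed E protein level moved from 1.47 to 0.751 in control and from 3.77 to 1.93 in AVP cultures with the longest transcript as length, because Tcf4 and Tcf12 have long unions of exons; the order of members per length was the same for all 9 there, and 7 of 9 kept their place without length.

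Replicate numbers gave no clear pairing of the samples in the values. Deviations from the group means of same-numbered samples correlated at 0.08, -0.05 and 0.04 over 14163 genes. Not every sample correlated best with its own number. Correlations this weak cannot tell whether cultures of the same number were handled together. Blocking on the replicate number (replicate block), 3972 genes rose and 3969 fell, and 26 related genes rose and 23 fell; Tcf12 and Itch did not pass there (adjusted p = 0.063 and 0.0653). Depth limits Hes5, Helt, Lfng, Maml2, Tcf15 and the BMP ligands, whose counts were few or 0. Having 3 cultures a group limits small differences such as those of Tcf12 and Itch.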
